A study of Musca domestica with 6 samples.

Results

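The proteasome genes of the housefly, Musca domestica, were taken as the protein-coding genes whose deposited description holds the word proteasome. The description was the one from the NR protein database, or from Uniprot where NR gave none. The word found 32 of 13278 protein-coding genes, in a table of 14227 genes. They comprised 14 core-particle subunits (7 alpha and 7 beta), 13 genes described as non-ATPase regulatory subunits, 3 accessory proteins and 2 assembly factors. RNA had been sequenced from whole larvae of the second instar, 24 h after they were injected with double-stranded RNA. That RNA matched MdCht9, a chitinase gene, in 3 samples (dsMdCht9), or the foreign sequence GFP, which flies lack, in 3 control samples (dsGFP). All larvae of both groups were thus injected and carried a double-stranded RNA, and no uninjected larvae were analysed here. Strain, sex and the number of larvae in a sample are not given in the labels. Whether samples of one group are different pools of larvae is not stated in the labels, so p-values reflect only the spread among these samples, some of which may be technical. No gene in the table is named MdCht9, so the knockdown could not be checked by name.

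The proteasome is the protease that breaks down most short-lived and damaged proteins of the cytosol and nucleus. Proteins marked with ubiquitin are bound, unfolded and stripped of ubiquitin by the regulatory particle, and are then threaded into the core particle, a barrel of stacked rings. The alpha rings form the gate of the barrel, and the beta rings hold the proteolytic sites inside it. In Drosophila and in mammals the genes of the subunits are regulated together, through the cap'n'collar transcription factors.

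Libraries held 12876941 to 15439421 counted reads. Levels are CPM, the reads of a gene per 1e6 counted reads of its library, after scaling by the trimmed mean of M-values (TMM), and differences are log2 fold changes, dsMdCht9 minus dsGFP, ± SE. The first principal component of all 10644 genes tested accounted for 49.3% of the variance and separated the samples numbered 3 from the other libraries. The medians of the core genes and of all 32 proteasome genes, and some other values, are given with and without those samples. All 32 proteasome genes passed the filter on low counts, with 204 to 5984 reads in a library. In RNA from whole larvae, fewer cells of a type and less RNA per cell cannot be told apart.

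Proteasome genes had slightly higher mean levels in dsMdCht9 than in dsGFP larvae, and none of them passed the test. The log2 fold change was above 0 in 31 of the 32 genes, or 96.9%, against 49.5% of all genes tested and 48.4% of the 4824 genes within the same range of mean CPM. Fold changes ran from 0.991 to 1.24, with a median of 1.14. On the log2 scale the median was 0.19, against -0.0033 over all genes tested. In edgeR's quasi-likelihood test 0 of the 32 genes had a Benjamini-Hochberg adjusted p under 0.05, against a background of 0% of all genes, and 0 had an unadjusted p under 0.05, against 3.58%. DESeq2 called 0 of the 32, against 0.0915% of all genes, and 0 with the replicate number as a block, against 0.902%. The 95% interval of every one of the 32 genes held 0, and the upper bounds ran from 0.30 to 0.70 on the log2 scale.

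In the same libraries the markers of fat body, cuticle, gut and muscle had medians below 0, at -0.41, -0.44, -0.29 and -0.17, and the part of tissue makeup in the proteasome values was not tested.

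The genes differed little from each other in the size of the difference. The SD of the log2 fold change was 0.069 over the proteasome genes, against 0.38 over all genes tested and 0.28 over genes within the same range of mean CPM. Among other complexes this SD was 0.073 for ribosomal protein genes, 0.11 for eIF3, 0.16 for oxidative phosphorylation and 0.43 for the COP9 signalosome. A small SD was thus not particular to the proteasome. The COP9 value includes LOC105261947, with 4 to 24 reads in a library, at -1.11, and LOC101888979, with 17 to 49 reads, at -0.57. The lower and upper quartiles of the log2 fold change were -0.1 and 0.053 for COP9 genes, and 0.16 and 0.22 for proteasome genes. The 3 samples of one group all lay above the 3 of the other in 12 of the 32 genes, or 37.5%, each time with dsMdCht9 higher, against 4.83% of all genes tested and 4.71% of genes within the same range of mean CPM. In 0 of the 32 genes did all dsGFP samples lie above, against 3.38% of all genes. The level in dsMdCht9 exceeded that in dsGFP at each of the 3 replicate numbers in 23 of the 32 genes, or 71.9%, against 15.3% of all genes. These genes share the same 6 libraries and moved together in them, so they are not separate observations of the treatment.

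**Figure D1:**
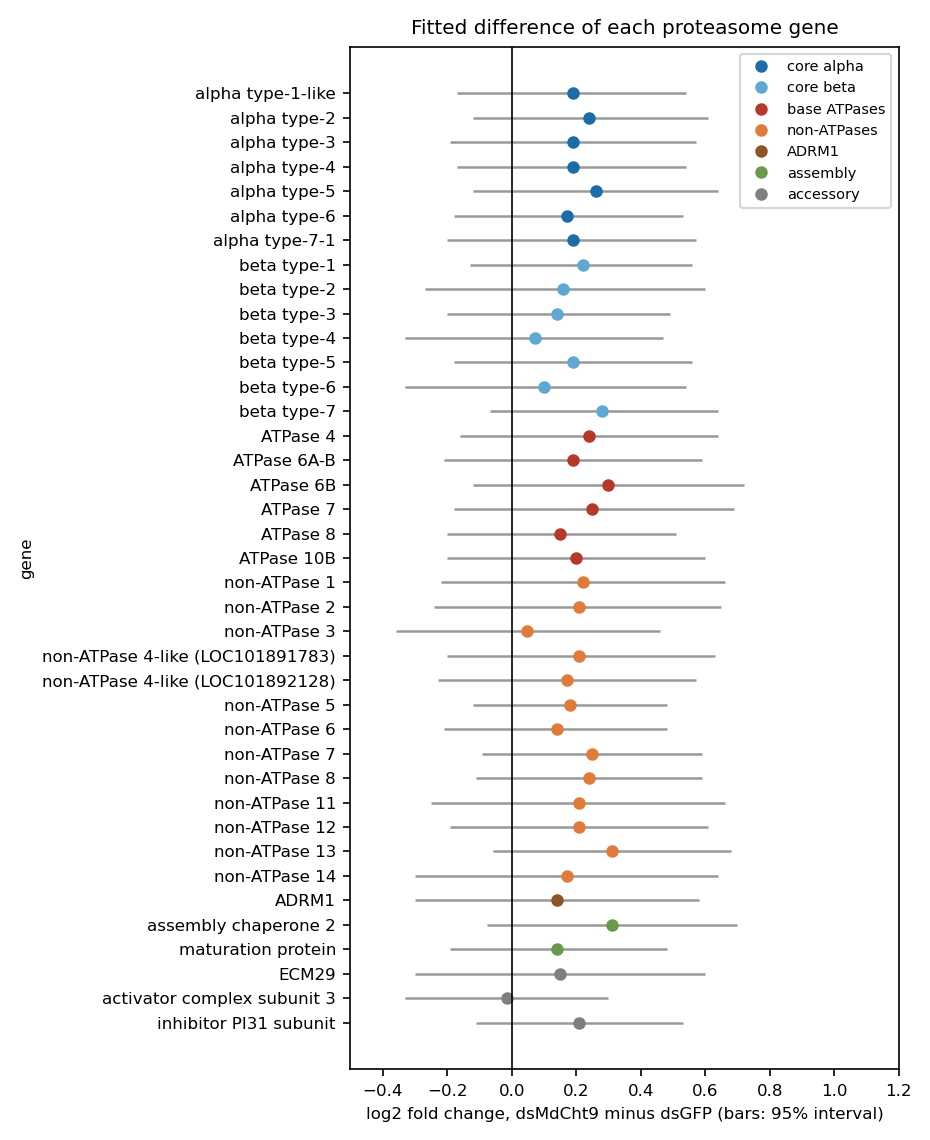
Each point is the log2 fold change of a proteasome gene, dsMdCht9 minus dsGFP, and each bar its 95% interval from edgeR, with 3 samples a group. Points of 31 of the 32 genes found by the word, and of the 7 further subunits, lie to the right of 0, and every bar crosses 0.

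The beta ring holds the proteolytic sites. The subunit beta5, LOC101899080, described as proteasome subunit beta type-5, carries the chymotrypsin-like site and lies on scaffold NW_004766190.1 at positions 29041 to 30056 of the plus strand. Its level was 173.0, 198.2 and 205.6 CPM in dsMdCht9 samples 1, 2 and 3, and 165.7, 184.1 and 156.4 CPM in dsGFP samples 1, 2 and 3. The groups overlapped, since dsGFP sample 2 exceeded dsMdCht9 sample 1. The means were 192.3 ± 17.1 and 168.7 ± 14.1 CPM (SD, n = 3 each), a log2 fold change of 0.19 ± 0.16 (edgeR, Benjamini-Hochberg adjusted p = 0.999).

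The subunit beta2, LOC101893986 (beta type-7), carries the trypsin-like site and lies on scaffold NW_004765084.1 at positions 196928 to 198078 of the plus strand. It was at 173.7, 198.0 and 185.1 CPM in dsMdCht9 and at 141.4, 162.9 and 152.8 CPM in dsGFP. All dsMdCht9 samples lay above all dsGFP samples. Its log2 fold change of 0.28 ± 0.15 was the highest of the core genes (edgeR, Benjamini-Hochberg adjusted p = 0.999), and the difference was 0.30, 0.28 and 0.28 within replicate numbers 1, 2 and 3.

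The subunit beta1, LOC101898873 (beta type-6), carries the caspase-like site and lies on scaffold NW_004764645.1 at positions 140997 to 142458 of the minus strand. Its level was 120.6, 135.5 and 103.4 CPM in dsMdCht9 and 124.9, 117.8 and 92.3 CPM in dsGFP. The groups overlapped widely, and sample 3 was the lowest of each group. The log2 fold change was 0.10 ± 0.18, and it was -0.013 without dsGFP sample 3. The 3 genes of the proteolytic subunits thus ranged from 0.10 to 0.28 with overlapping intervals.

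The other 4 beta subunits have no proteolytic site and build the ring. The gene of beta6, LOC101892733, had means of 173.1 ± 8.47 CPM in dsMdCht9 and 149.0 ± 10.8 CPM in dsGFP without overlap, which gave 0.22 ± 0.15 on the log2 scale. The gene of beta3, LOC101895479, gave 0.14 ± 0.15 and that of beta4, LOC101895991, 0.16 ± 0.18, both with overlapping groups. The subunit beta7, LOC101890687, had the smallest difference of the core genes, at 132.7, 182.9 and 162.7 CPM in dsMdCht9 and 151.0, 156.0 and 147.8 CPM in dsGFP. Its dsMdCht9 samples 1 and 2 were the lowest and the highest of all 6 libraries, and the log2 fold change was 0.072 ± 0.17. It was -0.038 without dsMdCht9 sample 2.

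The 7 alpha subunits form the outer rings, with the gate through which proteins enter. Their log2 fold changes lay between 0.17 and 0.26, and the median of 0.19 compares with 0.16 over the 7 beta genes. The gene of alpha5, LOC101892139, had the highest, at 245.7, 249.4 and 243.4 CPM in dsMdCht9 and 207.9, 230.3 and 177.9 CPM in dsGFP. All its dsMdCht9 samples exceeded all its dsGFP samples, and they varied by an SD of 3.02 CPM against 26.3 CPM in the controls. The fitted difference on the log2 scale was 0.26 ± 0.16 (edgeR, Benjamini-Hochberg adjusted p = 0.999).

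The groups did not overlap either in the genes of alpha1, alpha2 and alpha6. That makes 4 of 7 alpha genes with all dsMdCht9 samples higher, against 4.83% of all genes tested. In alpha1, LOC101901562, the lowest dsMdCht9 value, 182.5 CPM in sample 2, was close to the highest dsGFP value, 180.2 CPM in sample 2. The level of alpha2, LOC101896475, was 175.0, 182.3 and 175.9 CPM in dsMdCht9 and 149.6, 168.4 and 132.3 CPM in dsGFP. Its control samples were spread more widely than its dsMdCht9 samples, and dsGFP sample 3 was the lowest. The gene of alpha3, LOC101901528, whose tail closes the gate in yeast, had means of 164.1 ± 15.7 and 144.2 ± 5.79 CPM with a log2 fold change of 0.19 ± 0.15. In all 7 alpha genes dsGFP sample 3 was the lowest library, against 17.5% of all genes tested. In all 7 dsMdCht9 was higher at each of the 3 replicate numbers, against 15.3% of all genes. The median difference of the alpha genes was 0.10, 0.11 and 0.41 within numbers 1, 2 and 3, so it was largest at number 3.

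The regulatory particle has a base, with a ring of ATPases, and a lid. Rpn11, LOC101895606, the deubiquitinase of the lid that removes ubiquitin chains, lies on scaffold NW_004765099.1 at positions 82738 to 84148 of the minus strand. It was at 119.5, 177.3 and 169.6 CPM in dsMdCht9 and at 126.8, 152.8 and 134.9 CPM in dsGFP. The lowest of all libraries was dsMdCht9 sample 1 and the 2 highest were the other dsMdCht9 samples. The log2 fold change was 0.17 ± 0.20. Its partner Rpn8, LOC101888560, was at 123.0, 121.2 and 134.7 CPM in dsMdCht9 and at 108.0, 113.4 and 97.5 CPM in dsGFP, without overlap. The log2 fold change of Rpn8 was 0.25 ± 0.14, and it was 0.15 without both samples numbered 3.

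The remaining lid subunits are scaffold proteins. Rpn9, LOC101893209, on scaffold NW_004765205.1 at positions 234721 to 237292 of the plus strand, had the highest log2 fold change of the regulatory genes. It was at 147.1, 154.3 and 178.3 CPM in dsMdCht9 and at 118.5, 136.8 and 132.1 CPM in dsGFP. The groups did not overlap, and the log2 fold change was 0.31 ± 0.16, with the smallest unadjusted p of the 32 genes at 0.0881 and an adjusted p of 0.999 (edgeR, Benjamini-Hochberg). Rpn6, LOC101896211, which clamps lid and core together, had means of 286.9 ± 45.4 and 248.7 ± 32.3 CPM, with single values of 235.9, 322.7 and 302.1 CPM in dsMdCht9 and 213.0, 257.0 and 275.9 CPM in dsGFP. Its dsMdCht9 sample 1 lay below 2 of the dsGFP samples, and its log2 fold change was 0.21 ± 0.19. The groups overlapped in Rpn5, LOC101892359, at 0.21 ± 0.17. They did not overlap in Rpn7, LOC101897467, at 0.14 ± 0.15, nor in the gene of non-ATPase subunit 8, LOC101890191, known as Rpn12 in yeast, at 0.24 ± 0.15. In Rpn7 the lowest dsMdCht9 value, 223.1 CPM in sample 1, nearly equalled the highest dsGFP value, 223.0 CPM in sample 2.

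Rpn3, LOC101897043, had the smallest difference of the regulatory genes. Its level was 121.3, 168.3 and 160.8 CPM in dsMdCht9 and 148.9, 145.6 and 141.6 CPM in dsGFP. The dsGFP samples lay within a narrow range, with 1 dsMdCht9 sample below it and 2 above it. The log2 fold change was 0.047 ± 0.17, and it was -0.043 without dsMdCht9 sample 2 and -0.012 without both samples numbered 3.

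In the base, Rpn1 and Rpn2 are the large scaffold subunits, and Rpn1 binds the shuttle proteins that deliver ubiquitinated substrates. Rpn1, LOC101887355, was at 268.8, 387.3 and 345.3 CPM in dsMdCht9 and at 266.6, 305.4 and 296.1 CPM in dsGFP. Samples numbered 1 were the lowest of both groups and nearly equal. The log2 fold change was 0.21 ± 0.19, and that of Rpn2, LOC101891683, was 0.22 ± 0.19, with overlapping groups in both. The gene of non-ATPase subunit 5, LOC101897632, whose mammalian protein is a chaperone of base assembly and not a lasting subunit, had means of 60.3 ± 4.10 and 53.3 ± 1.55 CPM without overlap, or 0.18 ± 0.13 on the log2 scale.

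The ubiquitin receptor Rpn10 appeared as 2 genes, LOC101891783 on scaffold NW_004771980.1 at positions 18 to 1993 and LOC101892128 on scaffold NW_004771981.1 at positions 19 to 1993, both on the plus strand. Both had the same protein as their database hit and nearly the same span, so the counting could have split reads between near-identical copies, and their separate values are uncertain. Summed over both, the level was 61.9, 76.6 and 76.3 CPM in dsMdCht9 and 66.3, 65.0 and 58.1 CPM in dsGFP. The groups overlapped at dsMdCht9 sample 1, and the log2 ratio of the means was 0.18. The copies apart were at 19.1, 15.9 and 17.5 CPM (LOC101891783) and 42.8, 60.7 and 58.8 CPM (LOC101892128) in dsMdCht9, and at 17.4, 15.0 and 12.9 CPM and 48.9, 50.0 and 45.2 CPM in dsGFP. LOC101891783 held 30.9% of the sum in dsMdCht9 sample 1 and 20.8% to 26.3% in the other 5 libraries.

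Further subunits of the regulatory particle lack the word in their descriptions. They were 6 ATPases of the base, described as 26S protease regulatory subunits, and the ubiquitin receptor ADRM1, known as Rpn13. The 6 ATPases unfold substrates and open the gate. Their log2 fold changes ran from 0.15 to 0.30 with a median of 0.22, all 6 above 0 and 0 called, with overlapping groups in all 6. The ATPase described as 6B, LOC101894316, had the highest, at 251.1, 335.6 and 315.8 CPM in dsMdCht9 and 229.6, 266.6 and 237.8 CPM in dsGFP. Its dsMdCht9 sample 1 lay below dsGFP sample 2, and its log2 fold change was 0.30 ± 0.18. ADRM1, LOC101897204, was at 134.2, 190.0 and 174.0 CPM in dsMdCht9 and at 135.7, 150.6 and 166.1 CPM in dsGFP, with its lowest library in dsMdCht9 and a log2 fold change of 0.14 ± 0.19.

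Assembly factors and accessory proteins act on the particle without being part of it. The gene of assembly chaperone 2, LOC101895463, whose human and yeast proteins help to build the alpha ring, was at 55.0, 66.5 and 63.7 CPM in dsMdCht9 and at 41.7, 51.1 and 56.4 CPM in dsGFP. The groups overlapped only in that dsGFP sample 3 exceeded dsMdCht9 sample 1, and the log2 fold change was 0.31 ± 0.16. With the replicate number as a block it was the 1 proteasome gene of 32 with an unadjusted p under 0.05, at 0.0344 and 0.573 after Benjamini-Hochberg adjustment in edgeR, while 8.34% of all genes had such an unadjusted p in that fit. The maturation protein gene, LOC101897047, which in yeast and mammals serves in beta-ring assembly, was at 61.2, 61.7 and 65.4 CPM in dsMdCht9 and at 49.2, 62.0 and 59.3 CPM in dsGFP. Its groups overlapped, with dsGFP sample 1 apart at the low end, and its log2 fold change was 0.14 ± 0.14.

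Activator complex subunit 3, LOC101896416, forms a cap that opens the core without ubiquitin. It was the only one of the 32 genes with a log2 fold change below 0, at -0.014 ± 0.13. Its level was 70.3, 68.2 and 62.6 CPM in dsMdCht9 and 73.1, 66.5 and 63.4 CPM in dsGFP, with full overlap and the lowest value of each group in sample 3. The sign was positive under scaling by library size alone, at 0.11. PI31, LOC101889626, named an inhibitor from its action on the isolated mammalian core and an adapter for proteasome transport in Drosophila, was at 38.0, 38.6 and 43.4 CPM in dsMdCht9 and at 31.8, 35.7 and 36.2 CPM in dsGFP. The groups did not overlap, at 0.21 ± 0.14. ECM29, LOC101898213, which binds core and regulatory particle in yeast, was at 63.8, 98.1 and 91.3 CPM in dsMdCht9 and at 71.6, 79.3 and 77.3 CPM in dsGFP. Its dsMdCht9 samples held both the lowest library and the 2 highest, and its log2 fold change was 0.15 ± 0.19.

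Per kilobase of the gene's span on the scaffold, introns included, proteasome genes were well above the typical gene. The median was 107.7 CPM per kilobase over the 32 genes, against 3.63 over all genes tested. Core genes had a median level of 145.1, the 6 ATPases 121.0, and the non-ATPase genes 79.6 CPM per kilobase, the last with both Rpn10 copies and subunit 5 at the low end. The single levels ran from 79.2 (beta1) to 206.5 (alpha7, LOC101888299) in the core, and from 11.1 (ECM29) to 67.9 (assembly chaperone 2) among the accessory and assembly genes. Transcript lengths were not used here, so long introns lower a gene's value on this scale.

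The 39 proteasome genes, the 7 further subunits included, lay on 37 scaffolds. ECM29 and beta5 were neighbours on scaffold NW_004766190.1, with 3 genes and 15063 bases between them. The ATPase described as subunit 8 (LOC101889234) and non-ATPase subunit 8 (LOC101890191) shared scaffold NW_004764821.1, with 4 genes and 25618 bases between them.

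Core and regulatory genes had similar median differences between the groups. The median log2 fold change was 0.19 over the 14 core genes, 0.21 over the 13 non-ATPase genes, 0.22 over the 6 ATPases, 0.15 over the 3 accessory genes and 0.23 over the 2 assembly genes. Groups did not overlap in 6 of the 14 core genes and in 5 of the 13 non-ATPase genes. They did not overlap in 1 of the 3 accessory genes and in 0 of the 6 ATPases. Each time dsMdCht9 was higher, which held for 4.83% of all genes tested, and the genes of a class share the same 6 libraries. Within replicate numbers 1, 2 and 3 the median difference was 0.11, 0.11 and 0.35 for the core genes and 0.13, 0.21 and 0.22 for the non-ATPase genes. Without both samples numbered 3, the median was 0.10 for the core genes and 0.14 for all 32 genes, and 0.13 for the core without dsGFP sample 3 alone. For the non-ATPase genes it was 0.13 without dsMdCht9 sample 2 and 0.31 without dsMdCht9 sample 1.

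**Figure D2:**
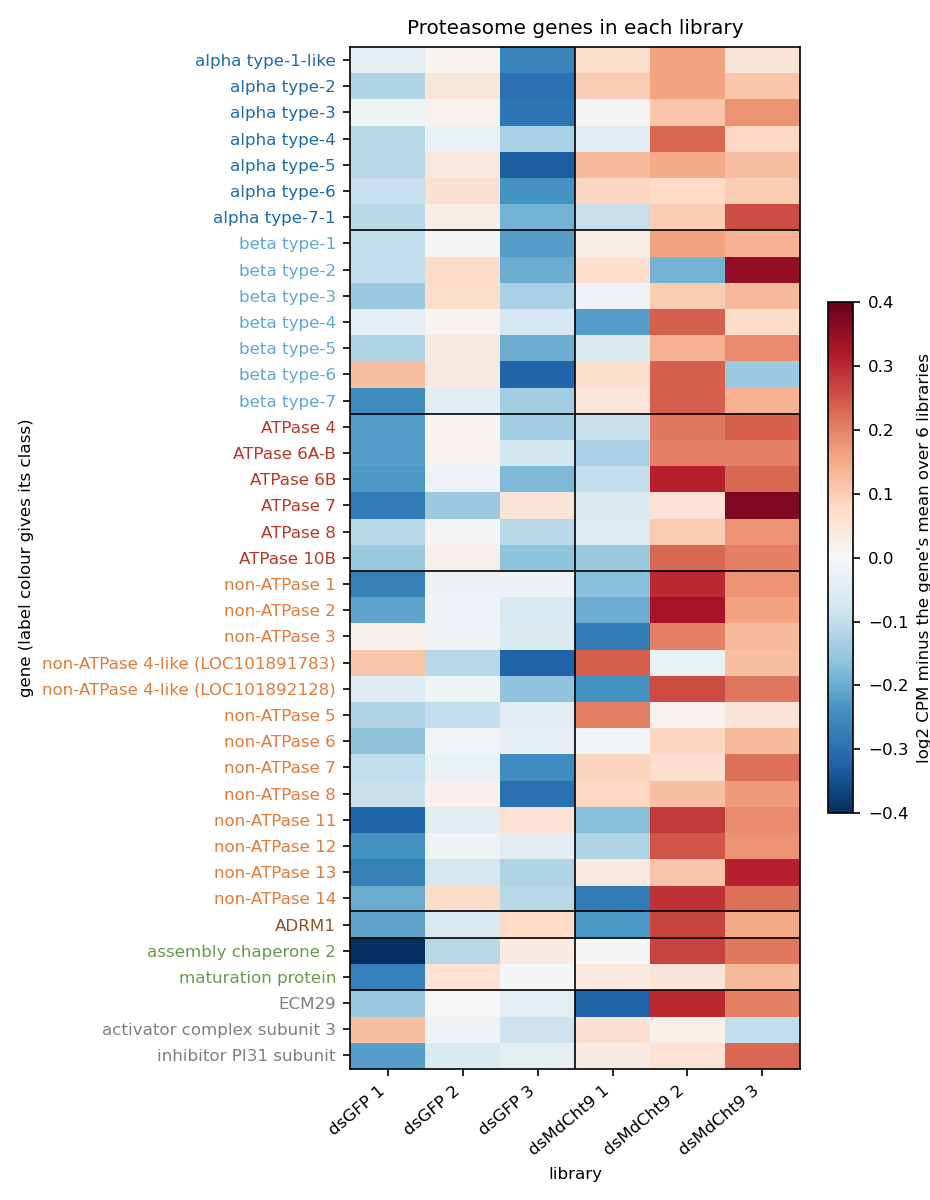
Each cell is the log2 CPM of a gene (rows) in a library (columns) minus the gene's mean over the 6 libraries, with the colour of the gene label giving its class. The columns of dsMdCht9 samples 2 and 3 are above the mean in 30 of the 32 genes each, and the column of dsGFP sample 3 is below it in 30.

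Within each library the proteasome genes lay close together. The level of each gene in a library was expressed relative to its own mean over the 6 libraries, on the log2 scale. The median relative level of the 32 genes was 0.016, 0.15 and 0.15 in dsMdCht9 samples 1, 2 and 3, and -0.11, -0.01 and -0.13 in dsGFP samples 1, 2 and 3. All dsMdCht9 libraries lay above all dsGFP libraries, with dsMdCht9 sample 1 and dsGFP sample 2 close to each other near 0. The interquartile range of the 32 genes within a library was 0.062 to 0.20, against 0.31 to 0.45 over all genes and 0.24 to 0.38 over genes within the same range of mean CPM. Genes of other complexes lay about as close together. Their range was 0.058 to 0.14 for ribosomal proteins, 0.064 to 0.15 for eIF3, 0.11 to 0.19 for oxidative phosphorylation and 0.084 to 0.22 for the COP9 signalosome.

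Of the variance of the 32 genes over the libraries, 61.7% lay on the first component. The share was 87.4% for the alpha genes, 55.1% for the beta genes, 69.1% for the non-ATPase genes and 88.6% for the 6 ATPases. Among other complexes it was 87.9% for ribosomal proteins, 81.7% for oxidative phosphorylation, 64.5% for the COP9 signalosome and 62.5% for eIF3. Over genes within the same range of mean CPM it was 59.2%. The share of the whole set was thus close to that of other genes of similar level, and the classes hold few genes, so their shares are given as descriptions. Over the 34 genes described as subunits, the ATPases and ADRM1 included, the first component held 66.2% and had weights of 0.55 and 0.53 for dsMdCht9 samples 2 and 3 and of -0.47 and -0.39 for dsGFP samples 1 and 3. The second held 19.0% and set dsGFP sample 3 (0.74) against dsMdCht9 sample 1 (-0.62).

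**Figure D3:**
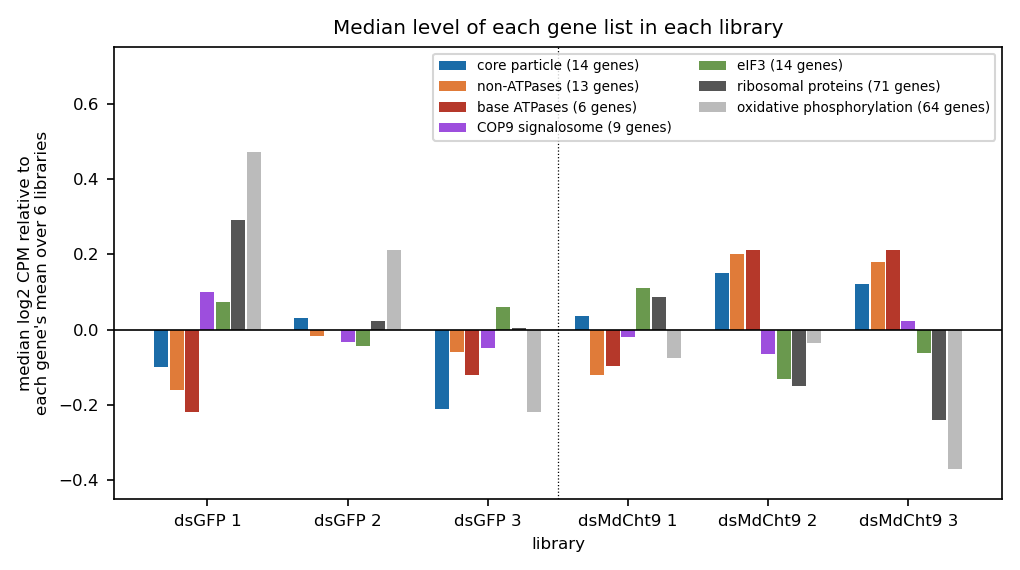
Bars give the median over a gene list of log2 CPM relative to each gene's mean over the 6 libraries, for each library and list, with the number of genes in the legend. The medians of the core genes, the non-ATPase genes and the ATPases are above 0.1 in dsMdCht9 samples 2 and 3, and those of ribosomal protein and oxidative phosphorylation genes are below 0 there.

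Core and non-ATPase genes lay furthest apart in dsGFP sample 3 and dsMdCht9 sample 1. In dsGFP sample 3 the median relative level was -0.21 for the core genes, -0.06 for the non-ATPase genes and -0.12 for the ATPases. In dsMdCht9 sample 1 it was 0.037 for the core genes, -0.12 for the non-ATPase genes and -0.098 for the ATPases. In the other 4 libraries the class medians of core and non-ATPase genes differed by at most 0.053. The core median exceeded that of the ATPases by 0.13 in dsMdCht9 sample 1 and by 0.12 in dsGFP sample 1, and the difference was -0.086 in dsGFP sample 3 and -0.089 in dsMdCht9 sample 3.

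The lowest library was dsGFP sample 3 for 11 of the 14 core genes and 3 of the 13 non-ATPase genes, and dsGFP sample 1 for 2 core genes, 7 non-ATPase genes and 5 of the 6 ATPases. In each of the 14 core genes dsGFP sample 3 was below the gene's mean. The median of the core genes minus that of the non-ATPase genes averaged 0.021 ± 0.12 in dsMdCht9 and -0.016 ± 0.12 in dsGFP (SD, n = 3 each), so the 2 groups did not differ in it beyond their spread. Within replicate numbers 1, 2 and 3 the dsMdCht9 value minus the dsGFP value of this measure was 0.10, -0.089 and 0.096, with no common sign. Rpn8, non-ATPase subunit 8 and the Rpn10 copy LOC101891783 had dsGFP sample 3 as their lowest library, as most core genes did.

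**Figure D4:**
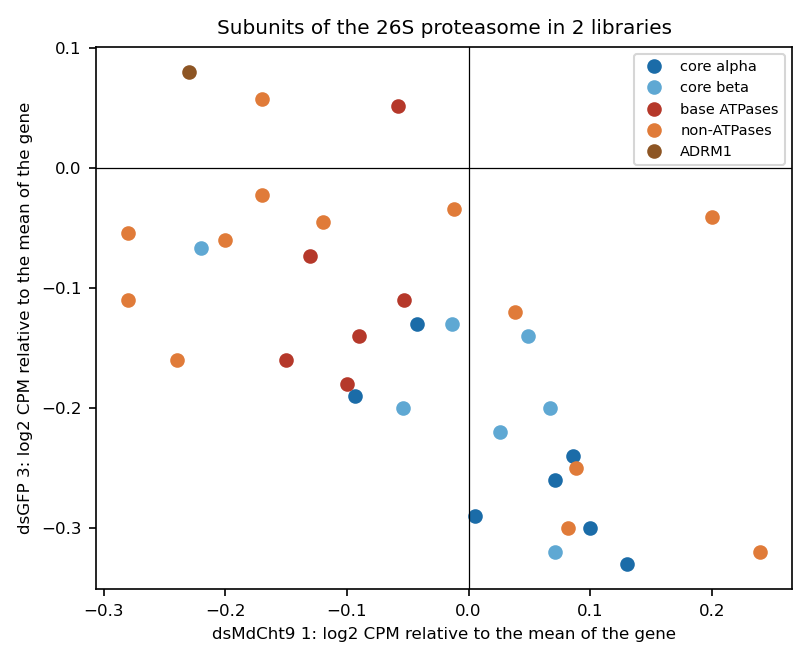
Each point is a subunit of the 26S proteasome, with its log2 CPM relative to its mean over the 6 libraries in dsMdCht9 sample 1 on the horizontal axis and in dsGFP sample 3 on the vertical axis. Core genes lie low in dsGFP sample 3, at a median of -0.21, and most non-ATPase and ATPase genes lie left of 0, in dsMdCht9 sample 1.

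Genes that act before the proteasome had median differences between 0.054 and 0.16. Ubiquitin is encoded by 4 tested genes, 2 with a log2 fold change above 0, with a median of 0.058. That median was 0.0097 without dsMdCht9 sample 1, 0.029 without dsGFP sample 1, 0.089 without dsGFP sample 2, 0.18 without dsGFP sample 3 and 0.21 without dsMdCht9 sample 2. Of 16 ubiquitin-conjugating enzymes, which pass ubiquitin on to substrates, 11 were above 0, with a median of 0.070, which was 0.13 without dsGFP sample 3, 0.16 without dsMdCht9 sample 2 and 0.041 without dsMdCht9 sample 3. Among these 16 genes 1 had an unadjusted p under 0.05 in edgeR, against 3.58% of all genes tested. It was the conjugating enzyme LOC101896504, with a log2 fold change of 0.42 ± 0.17 (edgeR, unadjusted p = 0.0418, Benjamini-Hochberg adjusted p = 0.999). Its levels were 24.4, 23.8 and 28.2 CPM in dsMdCht9 and 16.6, 18.3 and 22.1 CPM in dsGFP, without overlap. Of 10 tested cullins and partner proteins, which form the scaffold of ubiquitin ligases, 8 were above 0, with a median of 0.16, which was 0.07 without dsMdCht9 sample 3 and 0.091 without dsGFP sample 1.

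Segregases and shuttles extract substrates and carry them to the proteasome. Of 7 genes listed for them by description, 5 were above 0, with a median of 0.057. That median ranged from 0.018 without dsMdCht9 sample 2 to 0.13 without dsMdCht9 sample 1 and was 0.038 without dsGFP sample 1. The list and the 5 include LOC101887694, nuclear valosin-containing protein-like, at 0.044 ± 0.15, which the word valosin alone brought in and which may not have this role. The segregase TER94, LOC101898605, gave 0.084 ± 0.16. Of 26 deubiquitinases, 17 were above 0, with a median of 0.054 that was 0.028 without dsMdCht9 sample 2, 0.031 without dsGFP sample 1 and 0.094 without dsMdCht9 sample 1. Among them USP14, LOC101897220, which trims ubiquitin on the proteasome, gave 0.17 ± 0.17, and isozyme L5, LOC101888398, gave 0.097 ± 0.13. The groups overlapped in both. Both tested cap'n'collar genes were above 0, with a median of 0.093 that rested on single samples. It was -0.058 without dsGFP sample 1, -0.028 without dsMdCht9 sample 3, 0.03 without dsMdCht9 sample 2, 0.14 without dsGFP sample 3 and 0.22 without both samples numbered 3. In each of these lists 0 genes were called by edgeR after Benjamini-Hochberg adjustment.

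Other large complexes served for comparison. The COP9 signalosome and the translation factor eIF3 resemble the proteasome lid in architecture. Of 9 COP9 genes 4 were above 0, with a median of -0.051, and of 14 eIF3 genes 4 were above 0, with a median of -0.054. Both medians were positive under scaling by library size alone, at 0.077 and 0.069, where the median of all genes was 0.12 and that of the proteasome genes 0.31. The eIF3 median was also positive without both samples numbered 3, at 0.011, and the COP9 median without dsGFP sample 1 (0.03) or dsMdCht9 sample 2 (0.021). Of 71 ribosomal protein genes 1 was above 0, with a median of -0.22, and of 64 oxidative phosphorylation genes 2 were above 0, with a median of -0.34 and 3 of them lower at an unadjusted p under 0.05 in edgeR, against 1.61% of all genes. The median relative level of the proteasome genes minus that of the ribosomal protein genes averaged 0.21 ± 0.25 in dsMdCht9 and -0.19 ± 0.19 in dsGFP (SD, n = 3 each). Within replicate numbers 1, 2 and 3, dsMdCht9 exceeded dsGFP in this measure by 0.34, 0.34 and 0.53.

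Of the transcripts that mark tissues, those of 4 tissues had lower medians in dsMdCht9, while 31 of the 32 proteasome genes had higher means. The median log2 fold change was -0.41 for storage proteins of the fat body (1 of 11 above 0), -0.44 for cuticle proteins (11 of 59), -0.29 for gut proteases (21 of 80) and -0.17 for muscle proteins (12 of 45), and each was below 0 under all 15 alternatives. Within replicate numbers 1, 2 and 3, however, the median difference was -0.8, 0.22 and -0.16 for storage proteins and -0.38, 0.028 and -0.14 for muscle proteins. At number 2, 10 of the 11 storage protein genes and 25 of the 45 muscle genes were higher in dsMdCht9. The median differences were -1.13, -0.11 and -0.6 for cuticle proteins and -0.56, -0.094 and -0.25 for gut proteases. With 1 sample left out it ran from -0.53 (without dsMdCht9 sample 2) to -0.062 (without dsMdCht9 sample 1) for storage proteins and from -1.06 (without dsMdCht9 sample 2) to -0.39 (without dsMdCht9 sample 3) for cuticle proteins. It ran from -0.40 to -0.18 for gut proteases and from -0.28 to -0.075 for muscle proteins, in both from the value without dsMdCht9 sample 2 to that without dsGFP sample 1. Of the 80 gut proteases tested, 9 were lower at an unadjusted p under 0.05 in edgeR, against 1.61% of all genes. DESeq2 called 2 of them at an adjusted p under 0.05, against 0.0915% of all genes. The medians of nervous system and germ-line genes were 0.045 and 0.055, and both changed sign when single samples were left out.

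The summed levels of these markers varied widely within both groups. Summed muscle transcripts (45 of 53 genes tested) took 25261 to 42833 CPM in dsMdCht9 and 29640 to 42346 CPM in dsGFP. Storage proteins of the fat body (11 of 12) took 83179 to 145446 and 113906 to 149190 CPM, and cuticle proteins (59 of 130) took 18710 to 37028 and 24323 to 47566 CPM. Genes whose descriptions hold trypsin, chymotrypsin included, served as gut proteases (80 of 99), and where they are expressed was not checked. They took 6442 to 10458 CPM in dsMdCht9 and 9409 to 9624 CPM in dsGFP. Nervous system genes (14 of 32) took 165 to 428 and 151 to 583 CPM, with the highest value of each group in sample 3. Germ-line genes (3 of 5) took 94.6 to 108 and 95.9 to 100 CPM. The deposited table holds no gene at 0 in all libraries, so it does not show which markers were absent.

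In the authors' deposited table, 0 of the 32 proteasome genes were marked as significant, against 378 of all 14227 genes. At that share few or no marks would fall among 32 genes, so the 0 says little about them. The rule behind the mark was not examined, and DESeq2 called 13 genes here at an adjusted p under 0.05. The log2 fold changes in the authors' deposited table ran from -0.02 to 0.31 for these genes, with 31 above 0 and a smallest p-value of 0.0949. Those values come from the same counts and are no separate measurement.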

How the data were processed

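RNA from 6 samples of whole larvae was compared, grouped by their titles into dsMdCht9 (3) and dsGFP (3). Raw read counts for each gene in each sample were deposited, per the file headers. Beside them the authors gave, for each gene, the mean of the normalized signal and the fold change, both as a linear ratio and as log2. The authors also gave a p-value, unadjusted and adjusted. The submitters' processing notes list HISAT2 (2.1.0), StringTie (1.3.2d) and HTSeq (0.6.0) without roles. Not given in the sources used here are the build, the strand setting and the handling of reads with several positions, so near-identical copies are uncertain. The sample labels, which say whole body, were followed where the series text mentions retina. Positions are those of the deposited table. Of the 32 symbols, 31 were found in RefSeq's list of genes, and none of its coordinates were used.

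Counts were analysed in R 4.3.3 with edgeR 4.0.16: filterByExpr left 10644 genes, scaling was by TMM, and the robust quasi-likelihood F-test (two-sided) had group as its only term. Benjamini-Hochberg adjustment ran over all genes tested, with 0.05 as the threshold. The biological coefficient of variation was 0.306. Log2 CPM used a prior count of 2. DESeq2 1.42.0, limma-voom (limma 3.58.1), other scalings and filters, a replicate block and leaving out samples were among 15 alternatives. Scripts were tested on simulated data. A chi-square test of counts gave 34.4 to 146 per degree of freedom between samples of a group, so the samples are different libraries.

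The labels give both groups the replicate numbers 1, 2 and 3 without saying what a number shares. Deviations from the group means of same-numbered samples correlated across genes at 0.24, 0.395 and 0.652. The 3 deviations of a group sum to 0, so what the samples numbered 3 share also adds to the correlations among numbers 1 and 2. The numbers were used as a block in alternative fits and to describe differences within numbers. The main fit had no such term. A pairing within numbers 1 and 2 is thus not shown, and dsGFP sample 1 correlated more with dsMdCht9 sample 2, at 0.319, than with dsMdCht9 sample 1. The block moved the number of genes with an unadjusted p under 0.05 from 381 to 888, and edgeR called 0 genes either way. SEs, intervals and p-values of single genes are from the edgeR fit without the block unless stated otherwise. With the block, the smallest Benjamini-Hochberg adjusted p of the 32 proteasome genes was 0.573 (edgeR).

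The proteasome genes and the comparison lists were chosen by description, with earlier results of these data known, so lists are described by counts and medians and were not tested. By the rule for named genes, values in every sample were given for the proteolytic subunits, Rpn11, Rpn10, Rpn6 and Rpn1, for the extreme differences in core and regulatory particle, for accessory and assembly genes, and for pathway genes with an unadjusted p under 0.05. No core or regulatory gene was below 0, so the smallest difference took the place of the largest negative one. Values per sample of alpha2, alpha5, Rpn8, ADRM1 and the ATPase 6B, and single values of Rpn7, were added after they were seen.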

Additional observations from a re-analysis of the deposited data

How the results depend on the processing

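Under scaling by library size alone the median log2 fold change was 0.30 for the core genes and 0.31 for all 32 proteasome genes, while the median of all genes moved to 0.12. edgeR called 0 genes of the whole table with and without the replicate block (unadjusted p under 0.05 for 381 and 888 genes), limma-voom called 0 (379 unadjusted), DESeq2 called 13 (8 higher, 5 lower), and DESeq2 with the replicate block called 91 (16 higher, 75 lower), with 0 proteasome genes among them. The number of proteasome genes above 0, a count added after seeing the data, was 29 to 32 over the 15 alternatives. Leaving out 1 sample gave medians of 0.16 to 0.25 for all 32 genes, 0.13 to 0.25 for the core genes and 0.13 to 0.31 for the non-ATPase genes. The signs of 9 single-gene values changed. Activator complex subunit 3 (LOC101896416) gave 0.11 by library size alone, 0.0019 without both samples numbered 3, and -0.053 to 0.045 with 1 sample left out. Leaving out 1 sample gave -0.038 to 0.19 for beta7 (LOC101890687), -0.013 to 0.21 for beta1 (LOC101898873) and -0.043 to 0.18 for Rpn3 (LOC101897043). Without both samples numbered 3, beta4 (LOC101895991) gave -0.035 and Rpn3 -0.012. The cause of these changes was not tested. The median of the COP9 genes was positive with a filter of 5 CPM in 3 samples (0.051). With 3 samples a group, the SE of a proteasome gene was 0.13 to 0.20, and differences of the size seen here were not detectable gene by gene.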
